A study of Homo sapiens with 18 samples.

Results

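The 10 genes described here were the heat shock genes HSPA1A, HSPA1B, HSPA8, HSPH1, HSPE1, HSPD1, HSP90AA1, HSP90AB1, HSPB1 and BAG3, all known as targets of heat shock factor 1 (HSF1). They were chosen by name, and all 10 were found among the 57500 genes counted. HSPA1A and HSPA1B lack introns and form the intronless pair, while the other 8 genes are spliced. RNA was sequenced from 18 libraries, 9 of ES8 (a human Ewing sarcoma line) and 9 of Rh30 (a human alveolar rhabdomyosarcoma line), with 3 replicates lettered A to C in each of 6 groups. All cells carried dCas9-KRAB, the repressor used for CRISPR interference, were transduced with lentivirus carrying a guide, and were selected in puromycin for 72 hours. In each line the groups were parental cells with the non-targeting guide sgCTL, parental cells with sgDNAJC17, a guide against the co-chaperone DNAJC17, and cells stably expressing a FLAG-tagged DNAJC17 that lacks its RNA recognition motif (dRRM) with sgDNAJC17. No dRRM cells with sgCTL were analysed here, so the allele and the guide cannot be told apart in them. Per the paper's methods, such alleles came by a separate lentivirus with hygromycin selection for 10 days. No matching step is described for the parental groups, so the allele cannot be told apart from that transduction and selection either.

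HSF1 is held inactive by chaperones in unstressed cells. When unfolded proteins accumulate, it forms trimers that bind heat shock elements, inverted repeats of a short unit, and raises transcription of chaperone genes. HSP70 proteins bind exposed hydrophobic stretches of their clients in a cycle of ATP hydrolysis that J-domain proteins can start, and nucleotide exchange factors end. In the paper's assays, full-length purified DNAJC17 did not speed this hydrolysis. The form without the RNA recognition motif, as in the dRRM allele, did so modestly. Because the inducible HSP70 genes have no introns, their transcripts need no splicing.

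Sequences are shown for the heat shock elements near the start sites, since the members were grouped as HSF1 targets. RefSeq windows of 300 bases (250 before to 50 after an annotated start, build GRCh38.p14) were available for all 10 genes, 14 windows in all. They were searched on both strands for a 3-unit element spelled GAANNTTCNNGAA, and for the 2-unit elements GAANNTTC and TTCNNGAA, which also lie within every 3-unit match. A 3-unit match was present in 4 of the 10 genes, HSPA8, HSP90AA1, HSP90AB1 and HSPD1. By window, 4 of the members' 14 held one, beside 172 of 35116 windows of all genes (0.49%). A match describes letters only and does not show binding. In the sequences below, each read 5′ to 3′ on the gene's strand, capitals mark the match and the positions give where it begins relative to the start site.
HSPA8, at -230, chr11:123062349-123062371 (minus strand): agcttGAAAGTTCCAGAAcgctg
HSPA8, at -55, chr11:123062174-123062196 (minus strand): gccccTTCTGGAAGGTTCtaaga
HSP90AA1, at -88, chr14:102087115-102087137 (minus strand): ggttcTTCCGGAAGGTTCgggag
HSP90AB1, at -165, chr6:44247773-44247795 (plus strand): gcaggTTCTGGAAGATTCatggg
HSP90AB1, at -112, chr6:44247826-44247848 (plus strand): gattgTTCTGGAAGCTTCtggat
HSPD1, at -245, chr2:197500068-197500090 (minus strand): gcattTTCTGGAAAGTTCtggaa
HSPA1A, at -106, chr6:31815432-31815449 (plus strand): ccctgGAATATTCccgac
HSPA1B, at -105, chr6:31827628-31827645 (plus strand): ccctgGAATATTCccgac
HSPD1 had a further match at -240 that overlaps the one shown. HSPA1A, HSPA1B and HSPB1 held the 2-unit element alone, which 4737 windows (13.5%) contained. The printed stretch was the same in HSPA1A and HSPA1B. These letters were not found in the windows of HSPE1, HSPH1 and BAG3, and HSP90AA1, HSP90AB1 and HSPD1 each had other windows without a match. The HSPD1 matches lie outside the HSPE1 window but within the span of HSPE1 as counted here.

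Library totals ran from 35342393 to 48245989 counts. DNAJC17 itself fell with sgDNAJC17 in both lines, by 2.84 on the log2 scale in ES8 and by 2.19 in Rh30. In the dRRM groups DNAJC17 was higher than in sgCTL by 4.64 (ES8) and 4.99 (Rh30), and gene counts do not part the transgene from the endogenous transcript. All 6 Ewing sarcoma markers had at least 10 counts in every ES8 library, and 6 of 7 rhabdomyosarcoma markers did so in every Rh30 library, MYF6 being the exception. In the other line, 0 Ewing sarcoma markers did so in any Rh30 group, but 4 rhabdomyosarcoma markers did in each ES8 group. The rhabdomyosarcoma markers summed to 92.3 to 94.7 CPM in ES8 sgCTL and 2188 to 2298 CPM in Rh30 sgCTL. The cells were plated in triplicate, so p-values measure the spread between such samples, which may be technical. Levels below are in CPM, counts relative to each library's effective total after TMM scaling over all 18 libraries, with mean ± SD over 3 libraries. Fold changes are log2 values from edgeR's quasi-likelihood test fitted to all genes, with ± giving the standard error, and calls rest on an adjusted p below 0.05. Bulk RNA cannot tell fewer cells expressing a gene from less RNA per cell.

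In sgCTL cells the members differed widely in level. Per kilobase of exon, HSP90AB1, the constitutive cytosolic HSP90, was highest in ES8 at 857 ± 9.29 CPM per kb. It was followed by the small heat shock protein gene HSPB1 (693 ± 30.7) and the constitutive HSP70 gene HSPA8 (475 ± 7.06). HSP90AA1 (321 ± 6.55), HSPD1 (237 ± 3.82) and HSPE1 (133 ± 1.10) came next. BAG3 (25.3 ± 1.06) and HSPH1 (24.3 ± 0.376) overlapped with each other, and HSPA1B (14.1 ± 0.509) and HSPA1A (12.5 ± 0.465) were lowest. Rh30 sgCTL had the same order, with overlap between HSPA8 and HSP90AA1 alone, and with HSPA1B at 1.28 ± 0.0714 and HSPA1A at 0.216 ± 0.108 CPM per kb.

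The lines differed most in the intronless pair. HSPA1A, a stress-inducible HSP70 gene, was at 30.6, 30.1 and 32.3 CPM in ES8 sgCTL replicates A, B and C, and at 0.345, 0.846 and 0.423 CPM in Rh30 sgCTL. HSPA1B, its near-identical copy, was at 37.1, 34.8 and 35.0 CPM in ES8 and 3.03, 3.39 and 3.24 CPM in Rh30. Neither gene's libraries overlapped between lines. The log2 difference of Rh30 from ES8 was -5.85 ± 0.13 for HSPA1A (edgeR adjusted p = 6.45e-35) and -3.49 ± 0.08 for HSPA1B (edgeR adjusted p = 7.23e-34). From summed counts, HSPA1A was 57.0 times higher in ES8 (95% interval 45.0 to 73.5, which covers counting error only). Since the copies are near-identical, these separate values may depend on how reads were assigned between them. With the counts of the pair added, the log2 difference was -4.17 ± 0.08 (edgeR adjusted p = 2.06e-38). BAG3, a co-chaperone that releases nucleotide from HSP70, was higher in Rh30 by 0.80 ± 0.05, HSP90AA1 by 0.54 ± 0.04 and HSPH1 by 0.44 ± 0.04. In all, 4 members were higher in Rh30 and 3 lower, where 42.0% and 45.5% of all 17925 genes tested were. Of the smaller differences, HSP90AB1 (-0.12 ± 0.04) did not pass without ES8 sgCTL replicate A, and HSPA8 (0.02 ± 0.06) passed, at 0.12, without Rh30 sgCTL replicate A.

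Knockdown of DNAJC17 in ES8 lowered HSPA8 and HSPE1 and raised BAG3, each by less than 0.4 on the log2 scale. In all, 2 members rose and 3 fell, beside 13.6% and 13.8% of 17143 genes tested, and the members' median was -0.09 against -0.02 over all genes. HSPA8, the constitutive cytosolic HSP70, was at 2320, 2263 and 2324 CPM in sgCTL and 1889, 1920 and 1898 CPM in sgDNAJC17. Every knockdown library lay below every control (log2 fold change -0.30 ± 0.04, edgeR adjusted p = 0.00149). HSPE1, the mitochondrial co-chaperonin that caps HSPD1, went from 264, 261 and 266 CPM to 206, 211 and 202 CPM. Its groups did not overlap either (-0.37 ± 0.05, edgeR adjusted p = 0.000853). BAG3 was at 70.2, 71.9 and 66.3 CPM in sgCTL and at 92.0, 85.2 and 90.9 CPM in sgDNAJC17, again without overlap (0.34 ± 0.06, edgeR adjusted p = 0.00373).

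The other 2 calls in ES8 were close to the threshold. HSP90AB1 was at 2572, 2523 and 2571 CPM in sgCTL and 2300, 2382 and 2385 CPM with the guide (-0.14 ± 0.05, edgeR adjusted p = 0.0443), and HSPA1A was at 41.6, 34.3 and 37.0 CPM with the guide (0.26 ± 0.08, edgeR adjusted p = 0.0459). Both were lost when any one sgCTL library, or sgDNAJC17 replicate C, was left out (adjusted p 0.0705 to 0.162 by edgeR), with the replicate letter as a block and when all 18 libraries were fitted together. HSP90AB1 was also lost without sgDNAJC17 replicate B (edgeR adjusted p = 0.0923). HSPA1B, HSPH1, HSPD1, HSP90AA1 and HSPB1 did not pass. Replicate A of sgDNAJC17 stood apart for several of these. HSP90AA1, the inducible HSP90, was at 1411 CPM there and at 1778 and 1804 CPM in B and C, and HSPB1 was at 1578 CPM against 1224 and 1187 CPM. Without it 9 members passed, with HSPA1B at -0.21, HSPH1 at 0.13, HSPD1 at -0.10 and HSP90AA1 at 0.06 added. Correcting for GC content and length also gave 9 members. Ewing sarcoma markers summed to 381 to 395 CPM with the guide and 420 to 437 CPM in sgCTL, and epithelial markers, 14 of 14 with a count in each group, to 286 to 348 CPM and 304 to 309 CPM. Their part in these changes was not tested.

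**Figure D1:**
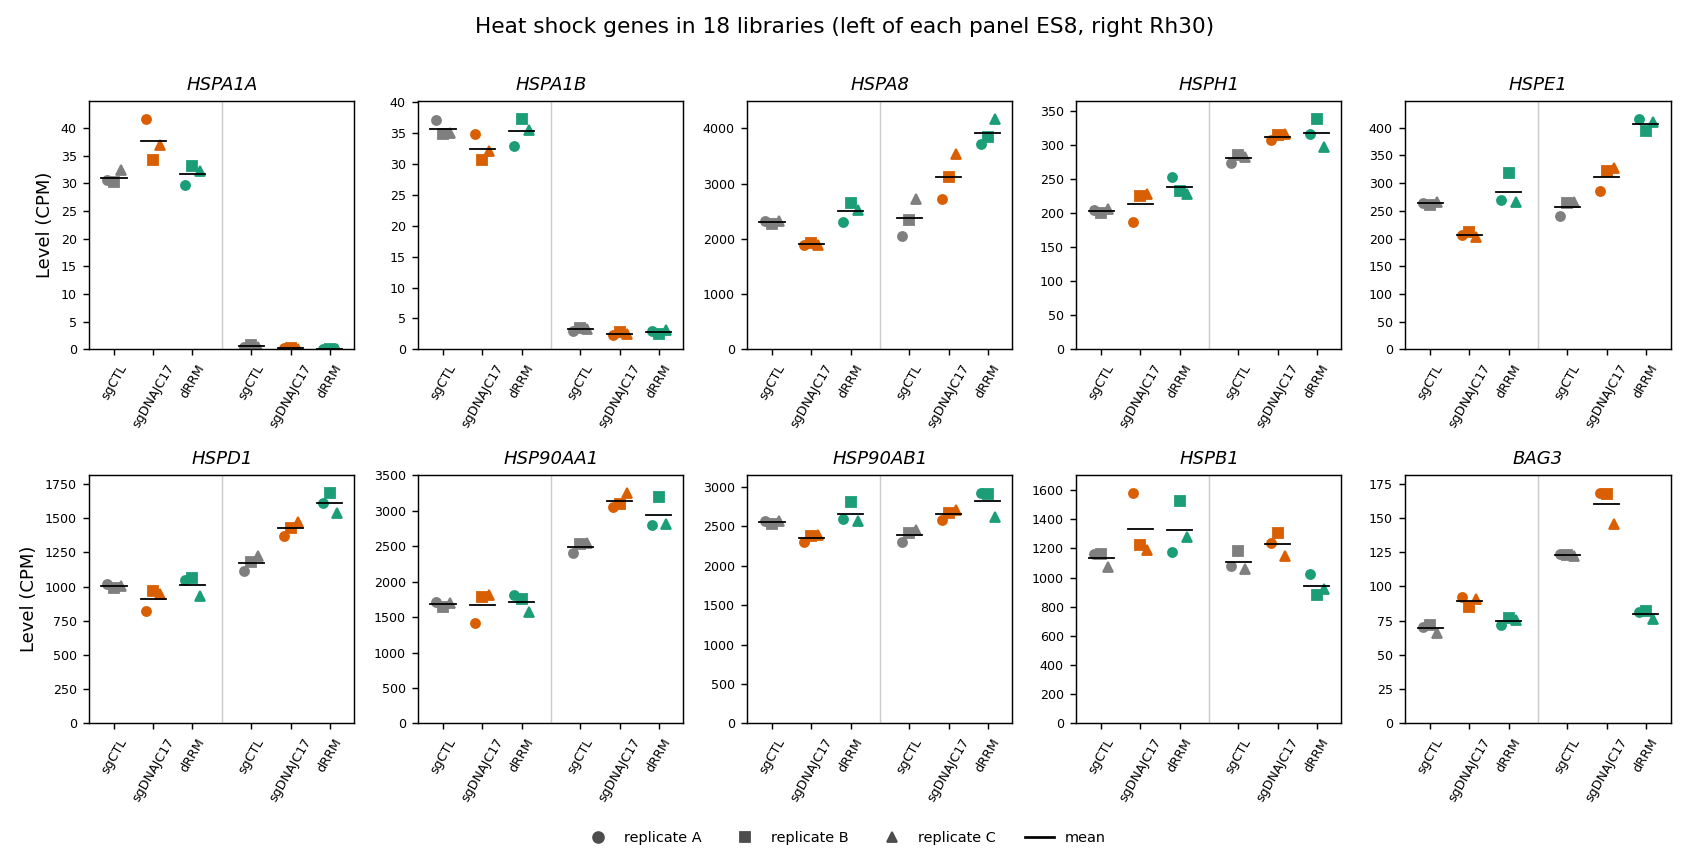
Level of each of the 10 genes in every library (CPM, linear axes from 0); points are libraries, marker shape gives the replicate letter and the black line is the mean of 3. HSPA8 and HSPE1 sit lower with sgDNAJC17 in ES8 and higher in the Rh30 dRRM libraries, and HSPA1A is near 0 in Rh30.

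The same guide in Rh30 was followed by higher levels of most spliced members. There, 7 members rose and 1 fell, beside 16.1% and 16.2% of 15391 genes tested, and the members' median was 0.23 against 0.00 over all genes. Values for this comparison come from the fit without pairing, unless the replicate block is named. Same-lettered replicates here were taken as paired, and the fit with that block is described later as an alternative. HSP90AA1 went from 2406, 2531 and 2545 CPM to 3057, 3094 and 3247 CPM, with no overlap (0.34 ± 0.06, edgeR adjusted p = 0.00100). BAG3 was at 124, 123 and 122 CPM in sgCTL and 168, 168 and 145 CPM with sgDNAJC17 (0.40 ± 0.06, edgeR adjusted p = 0.000606). HSPD1, the mitochondrial chaperonin HSP60, was at 1115, 1178 and 1225 CPM in sgCTL and 1373, 1426 and 1475 CPM with the guide. These groups were also apart (0.30 ± 0.06, edgeR adjusted p = 0.00298).

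HSPA8 in Rh30 varied with the replicate letter. It was at 2045, 2345 and 2725 CPM in sgCTL replicates A, B and C and at 2723, 3125 and 3533 CPM in sgDNAJC17, so that the groups overlapped narrowly, while within each letter the knockdown library was higher. Its log2 fold change was 0.42 ± 0.10 in the fit without pairing (edgeR adjusted p = 0.00801). HSPE1 was at 241, 264 and 266 CPM in sgCTL and at 286, 322 and 327 CPM with the guide (0.29 ± 0.07, edgeR adjusted p = 0.00618). The HSPE1 value was 0.10 and the call was lost (edgeR adjusted p = 0.112) after correction for GC content and gene length, and was kept when that correction was joined to the replicate block.

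HSPH1, an HSP110 exchange factor, and HSP90AB1 passed in Rh30 with smaller changes, 0.17 ± 0.06 each. Their libraries did not overlap, but each call was lost when any one of 5 of the 6 libraries was left out and stood only without sgDNAJC17 replicate A. HSPB1 was at 1081, 1179 and 1058 CPM in sgCTL and 1236, 1309 and 1150 CPM with sgDNAJC17. Its value of 0.17 ± 0.07 missed the threshold without pairing (edgeR adjusted p = 0.0656) and passed with the replicate letter as a block (edgeR adjusted p = 1.93e-05), and without sgDNAJC17 replicate A (0.18) or C (0.21). Epithelial markers were summed as a check on other cell types: 12 of 14 had a count in Rh30 sgCTL, with CLDN7 and RAB25 at 0, and 14 of 14 in sgDNAJC17, where the summed level was 92.0 to 102 CPM against 97.1 to 107 CPM in sgCTL. The sum hides the shift of single markers: of 8 tested, KRT8, KRT18, KRT19, CDH1 and TFF1 rose and CLDN4 fell (-0.27), with a list median of 3.58. The keratin gene KRT8 went from 0.658 to 1.01 CPM in sgCTL to 7.43 to 10.8 CPM with the guide (3.49 ± 0.18), and KRT18 was at 3.66 ± 0.28, while EPCAM stayed at or below 0.268 CPM in both groups. Rhabdomyosarcoma markers summed to 1718 to 1924 CPM with the guide and 2188 to 2298 CPM in sgCTL, and the part of either in these results was not tested.

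**Figure D2:**
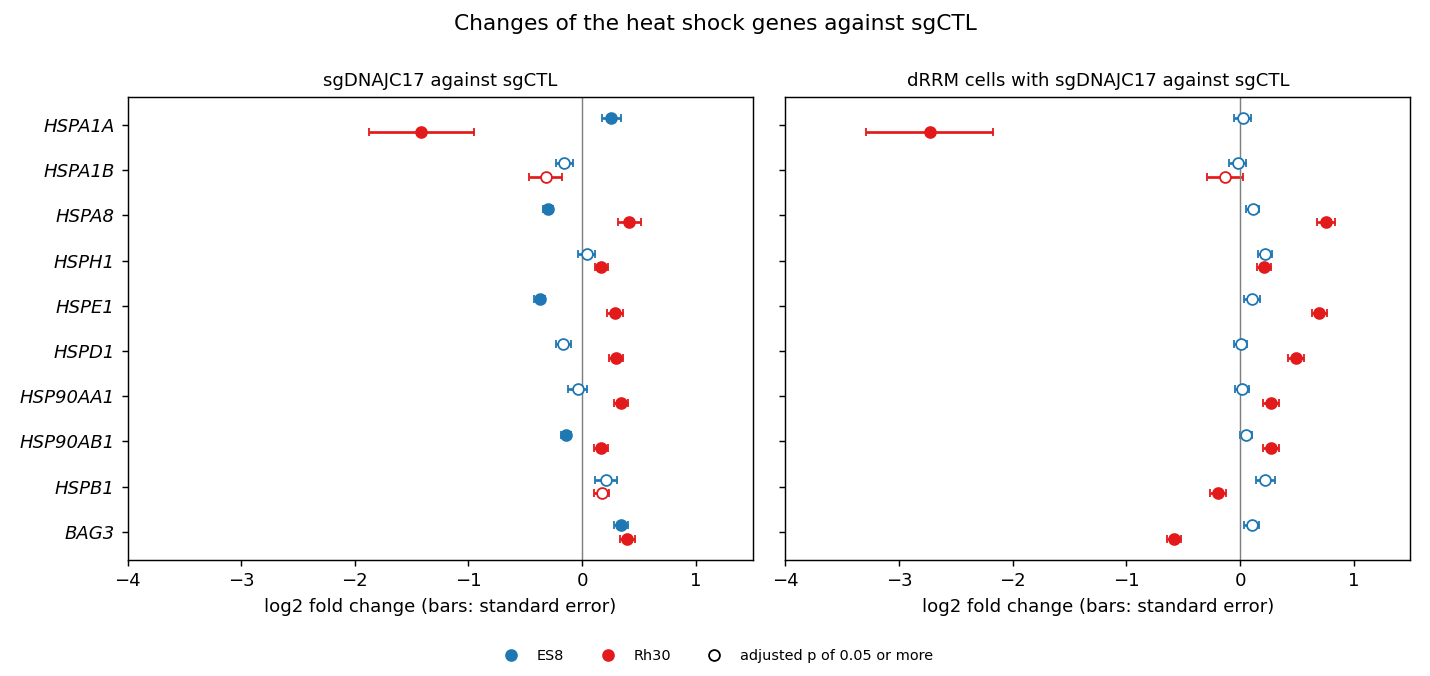
Log2 fold change of each gene against sgCTL in its line, for sgDNAJC17 (left) and for dRRM cells with sgDNAJC17 (right); bars are standard errors and open points had an edgeR adjusted p of 0.05 or more. With sgDNAJC17, HSPA8 and HSPE1 lie at -0.30 and -0.37 in ES8 and at 0.42 and 0.29 in Rh30, while BAG3 lies at 0.34 and 0.40.

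The difference between the lines was itself tested over the 12 parental libraries, in which both lines' knockdowns were compared with their own controls. The knockdown effect was higher in Rh30 for HSPA8 by 0.74 ± 0.13 (edgeR adjusted p = 0.00172), for HSPE1 by 0.69 ± 0.10 (edgeR adjusted p = 0.000287) and for HSPD1 by 0.49 ± 0.10 (edgeR adjusted p = 0.00326). HSP90AA1 (0.41 ± 0.10) and HSP90AB1 (0.33 ± 0.08) passed as well, and HSPA1A passed in the other direction. That made 6 of 10 members, beside 9.78% of 18899 genes. For HSPB1, HSPH1, HSPA1B and BAG3 no difference was called, with BAG3 at 0.08 ± 0.10. The HSP90AA1 and HSP90AB1 calls were lost without Rh30 sgCTL replicate A (0.32 and 0.25), and that of HSP90AB1 also without ES8 sgCTL replicate C.

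In ES8, no member passed the edgeR test between dRRM cells with sgDNAJC17 and sgCTL, where 0.093% of 17199 genes rose and 0.0814% fell. The fitted changes ran from -0.02 to 0.22. By DESeq2 0 passed as well. An unadjusted edgeR p under 0.05 was reached by 2 members, HSPH1 (0.22 ± 0.06) and HSPB1 (0.22 ± 0.08), beside 2308 of the 17199 genes. HSPA8 was at 2309, 2658 and 2523 CPM and HSPE1 at 270, 318 and 265 CPM in the dRRM libraries. Each of these was above all 3 sgDNAJC17 libraries. Against those, HSPA8 was 0.42 ± 0.08 higher (edgeR adjusted p = 0.00710) and HSPE1 0.48 ± 0.09 higher (edgeR adjusted p = 0.00569). These were the only 2 members called in that comparison, both upward, where 7.35% of 17099 genes rose and 7.36% fell. BAG3, at 72.2, 77.0 and 75.5 CPM, lay below every sgDNAJC17 library without passing (-0.23 ± 0.09, edgeR adjusted p = 0.0851).

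In Rh30, dRRM cells differed from sgCTL in most members. Here 6 members rose and 3 fell, beside 33.8% and 35.0% of 15442 genes tested, and the median was 0.24 against -0.01 over all genes. HSPA8 was at 3719, 3846 and 4168 CPM, above every library of both other Rh30 groups (0.76 ± 0.08 against sgCTL, edgeR adjusted p = 6.47e-13). HSPE1 reached 415, 394 and 411 CPM (0.70 ± 0.06, edgeR adjusted p = 4.67e-15) and HSPD1 1611, 1682 and 1535 CPM (0.49 ± 0.07, edgeR adjusted p = 4.38e-09). All 3 genes thus had their highest Rh30 level in dRRM cells. HSP90AA1 (0.27 ± 0.07), HSP90AB1 (0.27 ± 0.07) and HSPH1 (0.21 ± 0.06) rose less. Scaled by library size alone, the median of all genes moved by -0.23, and these 3 were then at 0.04, 0.04 and -0.022 and not called. With correction for GC content and length HSPE1 was at 0.19, HSPD1 at 0.21 and HSP90AA1 at 0.18, all still called, and HSP90AB1 was at 0.023 and not called.

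BAG3 and HSPB1 fell in the Rh30 dRRM cells. BAG3 was at 81.1, 81.9 and 76.4 CPM, below every sgCTL library (-0.58 ± 0.06, edgeR adjusted p = 8.64e-13), and thus moved the other way from its rise with sgDNAJC17 in parental cells. HSPB1, which holds unfolded clients without ATP, was at 1027, 879 and 922 CPM (-0.19 ± 0.07, edgeR adjusted p = 0.0110), a call lost without sgCTL replicate B or dRRM replicate B, at -0.15 and -0.14. Set directly against parental cells with the same guide, BAG3 was at -1.0 ± 0.08 (edgeR adjusted p = 2.34e-19) and HSPB1 at -0.38 ± 0.08. In that comparison 3 members rose and 2 fell, beside 29.4% and 30.5% of 15309 genes. HSPA8 (0.33 ± 0.09), HSPE1 (0.39 ± 0.08) and HSPD1 (0.18 ± 0.08) rose. With correction for GC content and gene length HSPE1 was at 0.08 and HSPD1 at 0.03, neither called, and the HSPD1 call was lost in 5 of 6 fits that left out a library, all but that without sgDNAJC17 replicate C. Epithelial markers had a count for 14 of 14 genes in dRRM libraries and summed to 132 to 148 CPM, above both other Rh30 groups. Against sgCTL 6 of 8 tested rose and none fell, with a list median of 3.54, KRT8 at 3.48 and KRT18 at 3.61. The rhabdomyosarcoma markers summed to 1403 to 1558 CPM, below both groups. Their part in these results was not tested.

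The dRRM effect against sgCTL also differed between lines, in 8 of 10 members beside 41.4% of 18854 genes. It was higher in Rh30 for HSPA8 by 0.65 ± 0.11 and for HSPE1 by 0.60 ± 0.09, and lower for BAG3 (-0.69 ± 0.08) and HSPB1 (-0.41 ± 0.11). HSPE1 no longer passed with the GC content and length correction, at 0.18 (edgeR adjusted p = 0.0579). HSP90AA1 (0.26) and HSP90AB1 (0.22) were close to the threshold: leaving out 1 library ended the HSP90AA1 call in 5 of 12 fits, for which ES8 sgCTL replicates A and C, ES8 dRRM replicate C, Rh30 sgCTL replicate A and Rh30 dRRM replicate B were the libraries, and the HSP90AB1 call in 9 of 12, the exceptions being ES8 dRRM replicate B and Rh30 sgCTL and dRRM replicates C.

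The median log2 fold change with sgDNAJC17 was 0.05 for the intronless pair and -0.09 for the 8 spliced members in ES8, and -0.87 and 0.29 in Rh30. In Rh30 dRRM cells it was -1.43 and 0.27 against sgCTL, and these medians of the pair rest mostly on HSPA1A. In ES8, HSPA1A rose with sgDNAJC17 while HSPA1B was at 34.9, 30.6 and 32.1 CPM (-0.16 ± 0.07, edgeR adjusted p = 0.149). Because the copies are near-identical, reads may be split between them or dropped, depending on the counting. Their summed level was 66.6 ± 1.47 CPM in sgCTL, 70.1 ± 5.87 CPM in sgDNAJC17 and 66.9 ± 3.95 CPM in dRRM cells. As a sum, the knockdown gave 0.05 ± 0.07 in ES8 (edgeR adjusted p = 0.642). HSPA1A made up 46.5 ± 1.44% of the sum in sgCTL, 53.6 ± 0.763% in sgDNAJC17 and 47.3 ± 0.202% in dRRM cells.

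In Rh30, HSPA1A rested on few reads, 14, 37 and 18 counts in sgCTL, 13, 7 and 4 in sgDNAJC17 and 1, 4 and 3 in dRRM cells. Replicate B of sgCTL was the highest. The summed counts gave a ratio of sgDNAJC17 to sgCTL of 0.368 (95% interval 0.221 to 0.594) and of dRRM to sgCTL of 0.141 (0.0586 to 0.294). Both intervals cover counting error only, not the spread between libraries. The fitted change with sgDNAJC17 was -1.42 ± 0.46 (edgeR adjusted p = 0.0305), and it did not pass without sgCTL replicate B (-0.93, edgeR adjusted p = 0.197) or without sgDNAJC17 replicate B or C (-1.39 and -1.13). In dRRM cells it was -2.73 ± 0.56 (edgeR adjusted p = 1.83e-05). HSPA1B was at 2.36, 2.86 and 2.46 CPM with sgDNAJC17 and 2.90, 2.53 and 3.21 CPM in dRRM cells, and passed in neither comparison with sgCTL. The sum of the pair went from 3.76 ± 0.436 CPM in sgCTL to 2.75 ± 0.256 CPM with sgDNAJC17 (-0.44 ± 0.14, edgeR adjusted p = 0.0316) and to 2.96 ± 0.341 CPM in dRRM cells (-0.32 ± 0.15, edgeR adjusted p = 0.0594). Between dRRM and sgDNAJC17 cells HSPA1A was filtered out of the edgeR fit as too low, so no difference was tested. Its summed counts of 8 and 24 gave a ratio of 0.383 (95% interval 0.149 to 0.882, counting error only). As a sum, the pair's knockdown effect did not pass as different between the lines (-0.46 ± 0.15, edgeR adjusted p = 0.0551), nor did its dRRM effect (-0.32 ± 0.14, edgeR adjusted p = 0.0727).

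**Figure D3:**
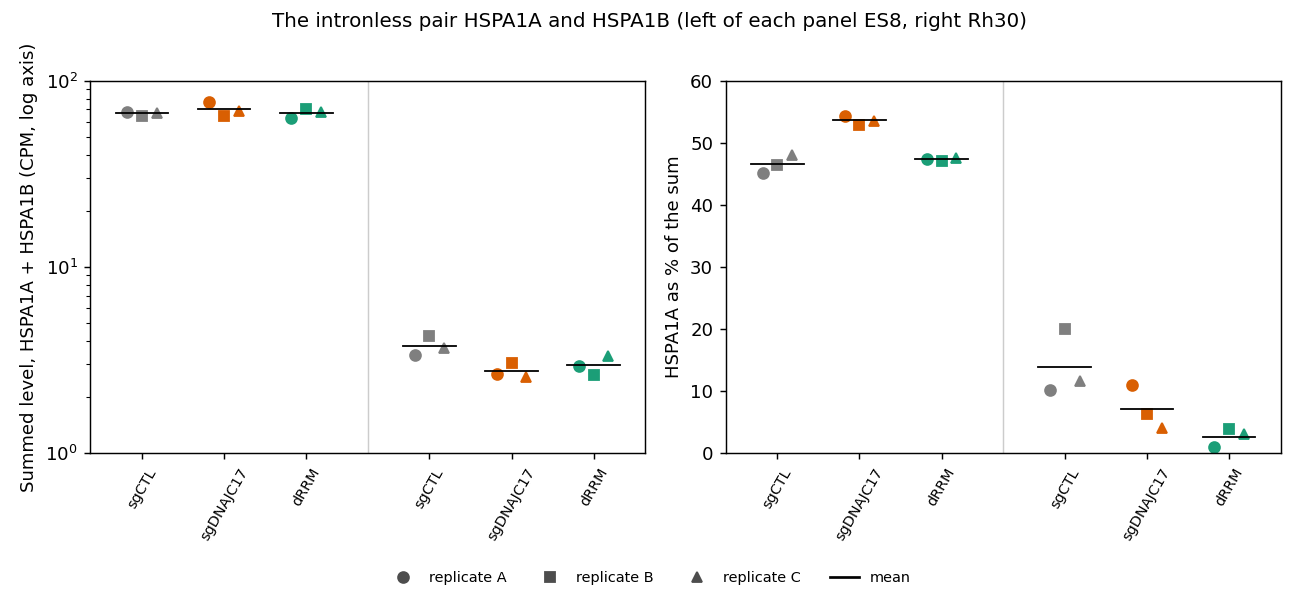
Summed level of HSPA1A and HSPA1B per library (left, CPM, log axis) and the percentage of that sum counted on HSPA1A (right); points are libraries, lines are means of 3. The group means of the sum are 66.6 to 70.1 CPM in ES8 and 2.75 to 3.76 CPM in Rh30, and the HSPA1A share is highest, at 53.6%, in ES8 sgDNAJC17.

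HSPE1 has a readthrough neighbour, HSPE1-MOB4, annotated as 1 transcript unit running from HSPE1 into MOB4, a subunit of the STRIPAK phosphatase complex. HSPE1 lies at chr2:197499994-197503457 on the plus strand and HSPE1-MOB4 at chr2:197500413-197550726 (GRCh38). All 890 exonic bases of HSPE1-MOB4 also belong to HSPE1 (192) or MOB4 (698), so a read on it must be assigned by the junctions or the counting rule. It was at 0.539, 0.213 and 0.433 CPM in ES8 sgCTL and at 3.09, 3.67 and 3.86 CPM with sgDNAJC17. In Rh30 the values were 0.246, 0.412 and 0.470 CPM in sgCTL and 3.01, 3.10 and 3.51 CPM with the guide. Knockdown libraries were above every control in both lines, by 3.12 ± 0.25 (edgeR adjusted p = 0.000133) and 3.09 ± 0.23 (edgeR adjusted p = 1.23e-06). The dRRM libraries were at 0.446, 0.725 and 0.691 CPM in ES8 and 0.657, 0.651 and 0.922 CPM in Rh30, far below those of parental cells with the guide (-2.48 ± 0.21 and -2.11 ± 0.23). In Rh30 they still lay above every sgCTL library (means 0.743 and 0.376 CPM), and the rise was called. MOB4 was also called higher there (75.4 against 39.2 CPM), while in ES8 neither gene was called between dRRM and sgCTL cells. With sgDNAJC17, HSPE1 itself moved in opposite directions in the lines, and MOB4 was at 0.07 ± 0.13 in ES8 and 0.31 ± 0.08 in Rh30. Adding the HSPE1-MOB4 counts to HSPE1 left HSPE1 at -0.35 in ES8 and 0.31 in Rh30. HSPE1 also shares 281 exonic bases with HSPD1 on the opposite strand, and how the counting treated strand is not given in the sources used here.

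**Figure D4:**
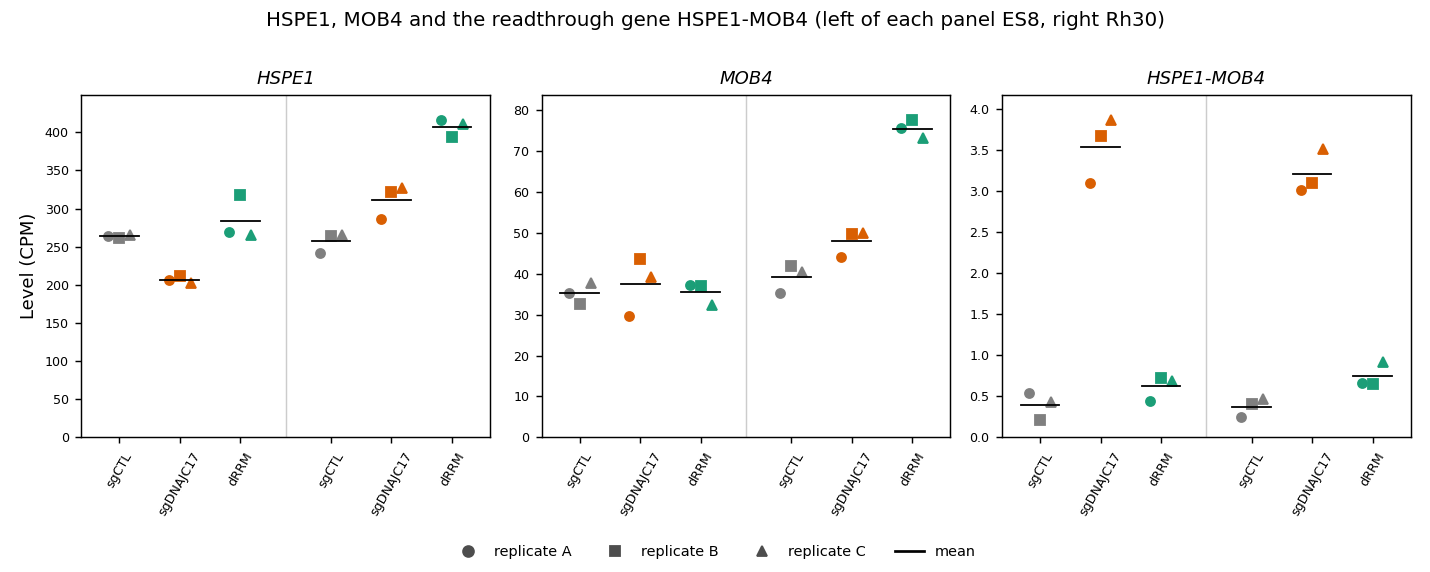
Level of HSPE1, MOB4 and HSPE1-MOB4 in every library (CPM, linear axes from 0); points are libraries and lines are means of 3. HSPE1-MOB4 stands at 3.01 to 3.86 CPM in all 6 sgDNAJC17 libraries of parental cells and at 0.922 CPM or less in the other 12.

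HSPA8 hosts small nucleolar RNA genes of the SNORD14 family. SNORD14C and SNORD14D, which share 88 and 87 bases with annotated HSPA8 exons, had 0 counts in every library. SNORD14E, within an intron of HSPA8, was named after its values were seen. SNORD14E had 26, 20 and 19 counts in ES8 sgCTL and 84, 86 and 102 with sgDNAJC17, and 14, 20 and 16 in dRRM cells. In Rh30 it had 2, 2 and 0 counts in sgCTL, 18, 42 and 18 with the guide, and 0, 2 and 1 in dRRM cells. The change with sgDNAJC17 was 2.33 ± 0.20 in ES8 (edgeR adjusted p = 0.000149), and in Rh30 the summed counts gave a ratio of 20.7 (95% interval 7.75 to 77.7, counting error only). The HSPA8 gene itself fell in ES8 and rose in Rh30. The libraries were selected for poly-A, so these counts need not be the mature small RNA.

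Other genes of the pathway were taken from lists. Of 16 further HSF1 targets, 3 rose and 1 fell in ES8 with sgDNAJC17, and of 14 tested in Rh30 7 rose and 2 fell, with list medians of 0.11 and 0.23. Over all genes tested 13.6% rose and 13.8% fell in ES8, and 16.1% rose and 16.2% fell in Rh30. DEDD2 (0.77) and DNAJA1, a J-domain partner of HSP70 (0.37), rose in ES8, where HSPA4L (-0.51) fell. In Rh30 HSPA6, a strictly inducible HSP70 gene without introns, went from 0.911, 0.938 and 0.987 CPM to 2.41, 2.88 and 2.09 CPM (1.39 ± 0.19, edgeR adjusted p = 0.000230). CHORDC1 (0.56) rose there too, and SERPINH1 (-0.19) fell. So HSPA6 rose where HSPA1A fell. In the dRRM cells of Rh30 it was at 0.575, 0.755 and 0.888 CPM.

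HSF1, the factor itself, fell with sgDNAJC17 in both lines. It was at 221, 219 and 209 CPM in ES8 sgCTL and 199, 165 and 165 CPM with the guide (-0.32 ± 0.08, edgeR adjusted p = 0.0139), and at 155, 149 and 142 CPM against 128, 122 and 107 CPM in Rh30 (-0.30 ± 0.07, edgeR adjusted p = 0.00522). HSBP1, a small protein that binds HSF1, rose by 0.23 in ES8 and 0.37 in Rh30. In Rh30 dRRM cells HSF1 was at -0.50 and HSBP1 at 1.09 against sgCTL, and HSF2 at 0.93. Among 10 other HSP70 family genes, 2 rose and 3 fell in ES8 and 2 of 8 tested rose and 1 fell in Rh30, beside shares over all genes of 13.6% and 13.8% in ES8 and 16.1% and 16.2% in Rh30. HSPA5, the HSP70 of the endoplasmic reticulum, rose in ES8 (0.34), and HSPA9, the mitochondrial HSP70, fell there (-0.30).

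Among HSP70 exchange factors and co-chaperones, 2 of 10 rose and 1 fell in ES8, and 5 rose and 1 fell in Rh30. The shares over all genes, here and for the next lists, were 13.6% up and 13.8% down in ES8 and 16.1% and 16.2% in Rh30. BAG1, a relative of BAG3, rose in both, by 0.37 and 0.52. BAG2, which slows the ubiquitin ligase STUB1, fell in ES8 (-0.36), and STUB1 fell in Rh30 (-0.33). Of 9 HSP90 family and co-chaperone genes, FKBP5 alone passed in ES8 (-0.51), while 3 rose in Rh30, TTC4 (0.34) and PTGES3 (0.23) among them, and CDC37, which brings kinases to HSP90, fell (-0.17). Of the other small heat shock proteins 1 fell in each line, HSPB8 in ES8 (-0.31) and HSPB7 in Rh30 (-0.47).

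As a description of the members' patterns, each was set beside the gene most like it by Pearson's r of log2 CPM, after subtracting each line's mean, over 18 libraries and 19359 genes. HSPE1 was closest to BZW2 (0.98), BAG3 to RRS1 (0.98), HSPB1 to S100A11 (0.97), HSPD1 to UAP1 (0.96), HSP90AA1 to UFM1 (0.96) and HSPA8 to MLX (0.95). HSPH1 and HSP90AB1 were closest to BORA and DKC1 at 0.93 each, HSPA1A to USP2 at 0.93 and HSPA1B to B4GALNT1 at 0.86. The points share libraries, depth and the spread between groups, so no p is given.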

How the data were processed

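RNA from 18 libraries (6 groups of 3) was measured by poly-A RNA-seq. The authors deposited 1 table of raw read counts per gene for each library. Per the labels, the submitters' processing notes name Trimmomatic 0.36, STAR 2.5.2b and featureCounts of Subread 1.5.2 with GRCh38. The paper's methods name an older build, but positions in the tables are those of GRCh38. Settings for strand, multi-mapped and overlapping reads are not given in the sources used here, which bears on HSPA1A, HSPA1B, HSPE1 and HSPE1-MOB4. No columns of other samples were present. Symbols came from a reference table for 55082 of 57500 genes, and promoter windows from RefSeq (GRCh38.p14).

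The quasi-likelihood test of edgeR 4.0.16, run under R 4.3.3, was applied to the counts (filterByExpr, TMM, Benjamini-Hochberg over all genes tested, adjusted p under 0.05), fitting the libraries of each comparison. On simulated data the script recovered nearly all changed genes, but only 2-fold changes in well-counted genes were planted. Smaller changes, as in most members here, and genes with few counts, as HSPA1A in Rh30, were not simulated. Ratios of summed counts have exact 95% intervals, which pool the libraries of a group and cover counting error only. Alternatives were DESeq2 1.42.0, other scalings and filters, stricter thresholds, all libraries in 1 fit, summed rows, a block for the replicate letter, and omission of each library. The corrections for GC content and gene length (lowess span 0.3), alone and with the block, were chosen after the data had been seen. Values under the alternatives and corrections were taken for the members only, so those of the other named genes were not checked in this way.

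The members and the lists were chosen with earlier results of these data known. The text names the 10 members, HSPE1-MOB4 and MOB4, DNAJC17 as a check of the labels, of each list up to 2 genes per direction with the smallest p among those passing, and the gene most like each member. Additional values for genes so named are given for context. A listed gene that the rule would name is not reported here. Same-lettered replicates in the Rh30 knockdown had correlated deviations of 0.203, 0.072 and 0.097 (A, B, C) over all 15391 genes tested and of 0.577, 0.287 and 0.348 over the 11426 genes with a mean count of at least 100, a minimum chosen after the first values were seen, and they were taken as paired on the second set. In every other comparison at least 1 letter was under 0.1 by either measure. The Rh30 knockdown values in the text are nonetheless from the fit without the block, except where the block is named. The interaction tests were also fitted without it.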

Additional observations from a re-analysis of the deposited data

Results flagged for a closer look

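For 6 members the effect of sgDNAJC17 differed between Rh30 and ES8 in the interaction test (edgeR adjusted p under 0.05). As Rh30 minus ES8 on the log2 scale, the difference was 0.74 for HSPA8, 0.69 for HSPE1, 0.49 for HSPD1, 0.41 for HSP90AA1, 0.33 for HSP90AB1 and -1.65 for HSPA1A. The HSPA1A value rests on 69 summed counts in Rh30 sgCTL and did not pass without Rh30 sgCTL replicate B (-1.15) or sgDNAJC17 replicate C (-1.36).

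For 8 members the effect in dRRM cells against sgCTL differed between the lines in the same kind of test. The difference was 0.65 for HSPA8, 0.60 for HSPE1, 0.49 for HSPD1, 0.26 for HSP90AA1, 0.22 for HSP90AB1, -0.41 for HSPB1, -0.69 for BAG3 and -2.76 for HSPA1A. Counted as a sum with its near-identical copy HSPA1B, HSPA1A gave -0.46 in the first test (edgeR adjusted p = 0.0551) and -0.32 in this one (edgeR adjusted p = 0.0727), neither of them called. Both tests use the same sgCTL libraries, so their values are not independent. The HSP90AA1 and HSP90AB1 differences were 0.04 and 0.01, not called, when libraries were scaled by size alone.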

How the results depend on the processing

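Counts of members called moved by over 1.5 times in these cases. ES8 sgDNAJC17 against sgCTL went from 5 to 3 at adjusted p under 0.01, with all 18 libraries in 1 fit and with the replicate block, to 9 with the GC content and length correction, and to 3 to 9 with 1 library left out. Rh30 sgDNAJC17 against sgCTL went from 8 to 5 at adjusted p under 0.01 and to 5 to 9 with 1 library left out, and its paired fit, with the replicate block, gave 9. ES8 dRRM against sgCTL went from 0 to 1 with no filter, with the correction, and in the range 0 to 1 with 1 library left out (without dRRM replicate A HSPB1, without B HSPH1). ES8 dRRM against sgDNAJC17 went from 2 to 4 with all libraries in 1 fit and 5 with the correction, and Rh30 dRRM against sgDNAJC17 from 5 to 3 with the correction. The interactions went from 6 to 3 at adjusted p under 0.01 (sgDNAJC17) and from 8 to 5 with the correction (dRRM). A fold change of at least 2 left 0 in ES8 sgDNAJC17, ES8 dRRM against sgDNAJC17 and Rh30 dRRM against sgDNAJC17, 1 in Rh30 sgDNAJC17, in Rh30 dRRM against sgCTL and in each interaction, and 2 between the sgCTL groups.

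Directions turned 6 times with a call on either side: HSP90AA1 to 0.064 in ES8 sgDNAJC17 without sgDNAJC17 replicate A (-0.0999 to 0.064 with 1 library left out), HSPH1 to -0.022 in Rh30 dRRM against sgCTL, HSPA8 to -0.20 and HSPD1 to -0.019 between the sgCTL groups, the last 3 by library size scaling, and HSPB1 to 0.32 between the sgCTL groups and 0.23 in the sgDNAJC17 interaction with the correction. The cause was not tested. Of 1074 values of single members under other settings 942 kept direction and side of the threshold, as did 596 of 654 with a library left out. The replicate block outside the Rh30 knockdown rests on a shared letter only. Depth limits HSPA1A in Rh30.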

Other observations

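The subunits of TRiC, the cytosolic chaperonin that folds actin and tubulin, rose with sgDNAJC17 in Rh30 for 7 of 8 genes, with CCT4 at 0.33 and CCT5 at 0.31 (list median 0.24), where 16.1% of all genes rose. In ES8, CCT3 alone passed (0.20, list median 0.06), where 13.6% of all genes rose. In Rh30 dRRM cells 7 of 8 rose against sgCTL, with CCT2 at 0.68 and TCP1 at 0.65, where 33.8% of all genes rose. This list was not examined under other scalings or the correction for GC content and length. Scaling by library size alone moved the median of all genes there by -0.23.

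Of 10 genes of mitochondrial protein quality control, AFG3L2, a subunit of an inner membrane protease, fell with sgDNAJC17 in ES8 (-0.52) and in Rh30 (-0.27). LONP1, the matrix protease, fell in Rh30 (-0.36), where GRPEL2 (0.34) and DNAJA3 (0.21), both partners of mitochondrial HSP70, rose. Those were all the list's calls, beside 13.6% of all genes up and 13.8% down in ES8 and 16.1% and 16.2% in Rh30.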
